A study of Mus musculus with 10 samples.

Results

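The EGF family was examined in the RNA of mouse intestinal organoids as 7 ligands (*Egf*, *Areg*, *Tgfa*, *Hbegf*, *Ereg*, *Btc* and *Nrg1*) and 3 receptors (*Egfr*, *Erbb2* and *Erbb3*). These genes were taken by name from the deposited table, and 10 of its 47069 genes carry those names. The study asked whether the carcinogen DMBA and loss of *Ppp2r1a*, which encodes a scaffold subunit of the phosphatase PP2A, act together on intestinal stem cells. Organoids came from C57BL/6 mice that were *Lgr5-EGFP-CreERT2; Ppp2r1a* flox/flox, so that tamoxifen (TAM) activates Cre in cells that express *Lgr5*, and all groups, controls included, carried these alleles. Cultures were kept for 50 days in Matrigel with Noggin, EGF and R-spondin-1, so every group received EGF protein from the medium. There were 10 libraries, 2 in each of 5 groups: control (saline), DMBA (labelled long), TAM short and TAM long (both labelled dosage-sensitive TAM), and DMBA+TAM. In the deposited table the libraries carry other names, NS for control, NL for DMBA, DSS_S and DSS_L for TAM short and TAM long, and Lgr5 for DMBA+TAM, which do not spell out these treatments, so each comparison holds for the libraries as labelled. The labels give neither doses, the segment of the intestine nor what short and long mean, and do not say whether libraries of a group came from separate mice or cultures, so p-values measure only the spread between these libraries, which may be technical.

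EGF family ligands are made as membrane proteins and are cut from the cell surface by ADAM proteases. *Egf*, *Areg* and *Tgfa* encode ligands of the EGF receptor, those of *Hbegf*, *Ereg* and *Btc* also bind Erbb4, and neuregulin 1 from *Nrg1* binds Erbb3 and Erbb4. Bound receptors pair with each other and signal through the Ras, ERK and PI3K cascades. Erbb2 has no known ligand and works as a partner, and Erbb3 has a weak kinase and signals through its partner, often Erbb2. In the gut these signals drive division of crypt cells, and EGF is a standard part of organoid medium.

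The libraries held from 8828247 to 10923673 counts in the 8 libraries without the combined treatment, and 1592366 and 1915270 counts in DMBA+TAM. Levels are given as normalized CPM, which are counts scaled to library totals (CPM) with edgeR's TMM factors. A count of 3, used as the floor for a gene listed at 0, equals 1.58 and 1.32 normalized CPM in the DMBA+TAM libraries and 0.258 to 0.378 in the others. Both DMBA+TAM libraries stood apart, with the markers of epithelium, the defining tissue of intestinal organoids, nearly absent: 10 of 10 were lower than in control, their sum was 42.1 and 27.7 normalized CPM against 16822 to 26775 in the other 8 libraries, and *Epcam* had 3 counts in each. Fibroblast, macrophage and endothelial markers were higher there (values below), and in bulk RNA fewer cells of a type cannot be told apart from less RNA per cell. *Ppp2r1a* had between 123 and 169 normalized CPM in all libraries, and since counts sum over all exons they do not check the deletion of a part of the gene.

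Of the ligand genes, *Ereg* and *Areg* are neighbours on the plus strand of chromosome 5 of GRCm38, with *Epgn* before them and *Btc* on the minus strand after them. The deposited table places *Ereg* (ENSMUSG00000029377) at chr5:91074622-91093646, *Areg* (ENSMUSG00000029378) at chr5:91139599-91148432 and *Btc* (ENSMUSG00000082361) at chr5:91357261-91402994. *Egf* (ENSMUSG00000028017) lies at chr3:129677565-129755316 and *Tgfa* (ENSMUSG00000029999) at chr6:86195223-86275719, and *Hbegf* has the identifier ENSMUSG00000024486. *Egfr* (ENSMUSG00000020122) spans chr11:16752203-16918158, *Erbb2* (ENSMUSG00000062312) chr11:98412470-98437716 and *Erbb3* (ENSMUSG00000018166) chr10:128567523-128589652. For *Nrg1* (ENSMUSG00000062991) the table gives chr8:31818028-31918203, whereas GENCODE M21 places the gene at chr8:31814551-32884029, so reads from its more distant 5' exons were not counted. All 10 genes are protein coding in GENCODE M21. Exons of *Egf*, *Ereg*, *Tgfa*, *Nrg1* and *Erbb2* share bases with a gene of the opposite strand, and since the strand setting of the counting is not given in the sources used here, reads of the 2 genes cannot be told apart.

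RefSeq windows for 6 of the 10 members were read from GRCm38.p6. The 250 bases before the start are shown for 3 of the members whose level differed between DMBA+TAM and every other group. These are the EGF receptor ligand genes *Areg* and *Tgfa*, which were lower, and *Egfr*, which was higher. *Erbb2*, also lower than in every other group, had a window too, which is not shown. The 3 windows are written 5' to 3' on the strand of the gene, all of them the plus strand, with motifs in capitals. The motifs searched, on both strands, were TATAAA (the core promoter element), TGACGTCA (cyclic AMP response element), TGANTCA (AP-1 site), GGGCGG (GC box) and CCAAT (the NF-Y motif).
Areg, chr5:91139349-91139598: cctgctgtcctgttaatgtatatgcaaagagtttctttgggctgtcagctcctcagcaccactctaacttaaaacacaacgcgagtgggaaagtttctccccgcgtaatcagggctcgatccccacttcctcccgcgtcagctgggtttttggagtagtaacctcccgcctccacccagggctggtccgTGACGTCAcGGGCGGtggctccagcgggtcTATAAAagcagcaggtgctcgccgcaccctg
Tgfa, chr6:86194972-86195221: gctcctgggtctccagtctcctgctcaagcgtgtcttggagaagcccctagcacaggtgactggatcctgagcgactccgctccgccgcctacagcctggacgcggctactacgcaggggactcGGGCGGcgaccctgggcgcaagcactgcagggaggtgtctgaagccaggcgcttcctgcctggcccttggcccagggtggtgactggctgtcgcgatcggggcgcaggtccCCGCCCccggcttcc
Egfr, chr11:16751953-16752202: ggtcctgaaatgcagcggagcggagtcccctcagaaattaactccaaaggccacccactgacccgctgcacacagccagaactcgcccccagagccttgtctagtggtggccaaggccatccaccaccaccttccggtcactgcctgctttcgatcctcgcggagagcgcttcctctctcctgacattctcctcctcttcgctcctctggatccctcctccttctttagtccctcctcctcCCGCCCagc
The *Areg* window holds TATAAA 31 to 26 bases before the start, a GC box 52 to 47 bases before it and a cyclic AMP response element 61 to 54 bases before it. TGACGTCA was found in 1.55% of 32851 windows of the same length, TATAAA in 12.37%, GGGCGG in 32.74%, TGANTCA in 6.75% and CCAAT in 33.85%. The *Tgfa* window holds 2 GC boxes and the *Egfr* window 1 (on the other strand it reads CCGCCC), and neither holds TATAAA. A match is a description of letters and not evidence of a bound factor.

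Of the receptors, *Egfr* was higher in DMBA+TAM than in any other group, and *Erbb2* and *Erbb3* were lower. Against control all 3 were called, in a comparison where 64.3% of the 16179 genes tested were called. The DMBA+TAM libraries had 145 and 139 normalized CPM of *Egfr*, against 41.9 and 43.5 in control, 43.0 and 50.5 in DMBA, 45.6 and 39.4 in TAM short and 39.6 and 56.0 in TAM long. Both DMBA+TAM values thus lay above all 8 others, which overlapped among themselves. Of all genes tested, 24.7% had both DMBA+TAM libraries above the 8 others and 29.9% had both below them. The mean was 3.34-fold that of control, with a log2 fold change of 1.74 (standard error, SE, 0.17; adjusted p = 1.25e-05, edgeR's quasi-likelihood F test, Benjamini-Hochberg over all genes tested). *Erbb3* had 309 and 328 normalized CPM in control, 247 and 228 in DMBA, 423 and 487 in TAM short, 392 and 357 in TAM long, and 11.1 and 4.84 in DMBA+TAM, the last from 21 and 11 counts. The groups did not overlap for this gene, and DMBA+TAM was 40.1-fold lower than control (log2 fold change -5.36, SE 0.27, adjusted p = 1.08e-07). With each library left out this fold change ranged from -6.06 (without DMBA+TAM replicate 1) to -4.87. *Erbb2* had 105.5 and 110 normalized CPM in control, 143 and 120 in DMBA, 105 and 122 in TAM short, 175 and 141 in TAM long, and 16.9 and 18.9 in DMBA+TAM. It was 6.02-fold lower than in control (log2 fold change -2.58, SE 0.18, adjusted p = 8.74e-07), a smaller change than that of *Erbb3* with intervals that do not overlap (-2.98 to -2.19 and -5.95 to -4.76).

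**Figure D1:**
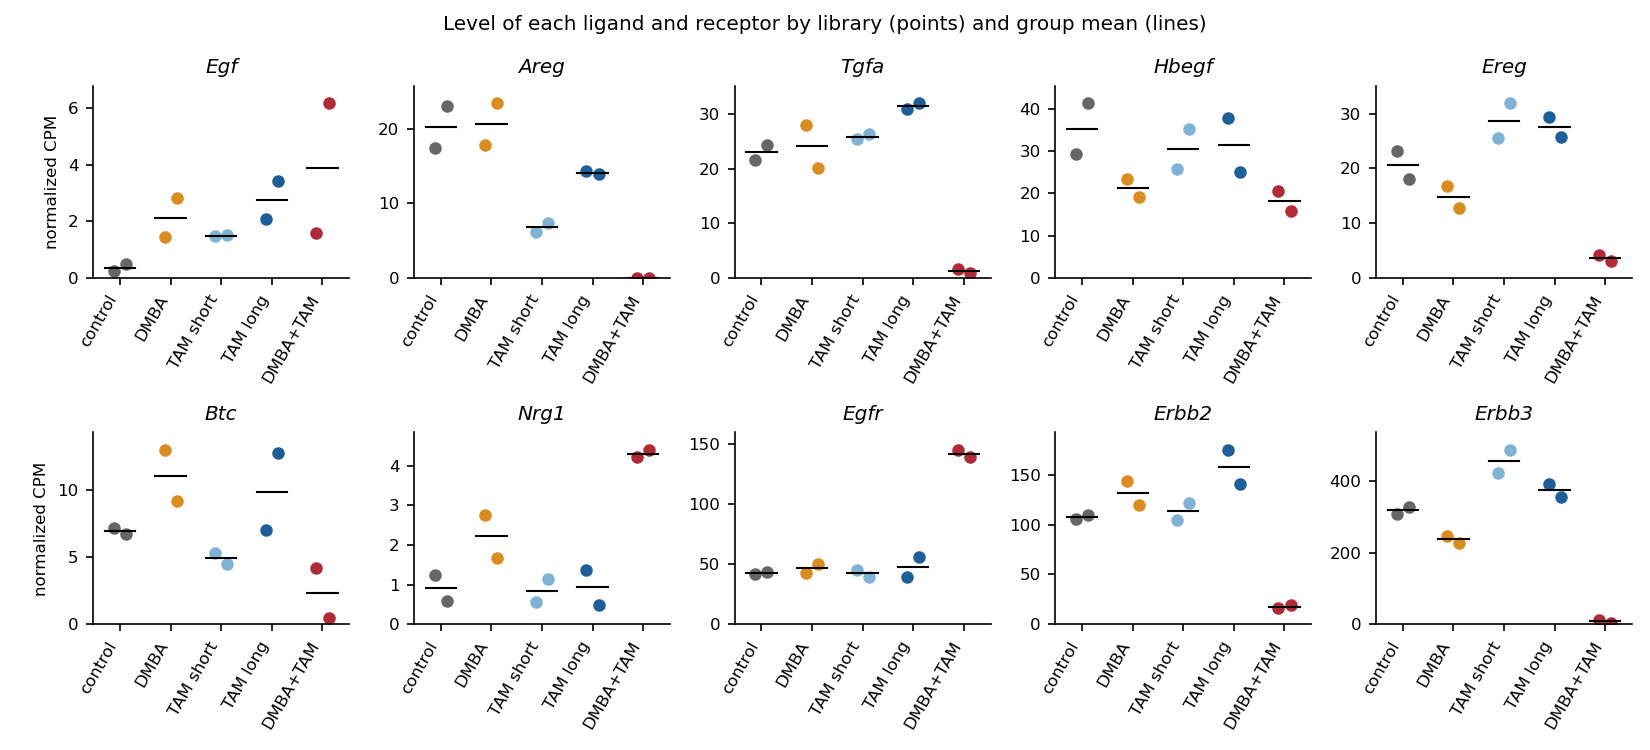
Level of each of the 7 ligands and 3 receptors in normalized CPM (vertical axis, from 0, a scale of its own for each gene) in the 5 groups (horizontal axis), with a point for each of 2 libraries and a line for the group mean. Both DMBA+TAM points are above all others for *Egfr* (145 and 139) and *Nrg1* (4.21 and 4.40), and below all others for *Areg*, *Tgfa*, *Ereg*, *Btc*, *Erbb2* and *Erbb3*, as were 24.7% and 29.9% of all genes tested.

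The 3 receptors were also called, in the same directions, against DMBA (55.1% of genes called), TAM long (55.2%) and TAM short (63.1%). Against DMBA the log2 fold changes were 1.61 for *Egfr*, -2.88 for *Erbb2* and -4.93 for *Erbb3*. Against TAM long they were 1.58, -3.14 and -5.59, and against TAM short 1.74, -2.66 and -5.87 in the same order of genes. Without DMBA+TAM replicate 1 the values of *Erbb3* were -5.62, -6.27 and -6.58 for these 3 groups. All of these comparisons share the DMBA+TAM libraries and are not independent of each other. No library left out, and none of the 8 other settings run, removed one of these calls, and scaling by library size alone gave 2.23, -2.09 and -4.87 against control.

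Ratios between receptors within a library need no scaling across libraries. In control there were 7.38 and 7.53 *Erbb3* reads for each *Egfr* read, and the other single-treatment groups ranged from 4.51 (DMBA replicate 2) to 12.4 (TAM short replicate 2). In DMBA+TAM the ratio was inverted, with 13.1 and 28.8 *Egfr* reads for each *Erbb3* read, a ratio that rests on 21 and 11 *Erbb3* counts. *Erbb2* had 2.52 reads for each *Egfr* read in both control libraries and 0.116 and 0.136 in DMBA+TAM. Corrected for length with the deposited FPKM, *Erbb3* made up 52.8% ± 0.346 (SD, n = 2) of the summed receptor FPKM in control, *Erbb2* 32.8% ± 0.235 and *Egfr* 14.4% ± 0.111. In DMBA+TAM, *Egfr* made up 87.7% ± 0.139, *Erbb2* 9.95% ± 1.12 and *Erbb3* 2.38% ± 1.26. The deposited FPKM of *Egfr* is computed on 2955 bases while the table lists 10208, and on the listed lengths the *Egfr* share was 5.32% ± 0.0519 in control and 74.1% ± 1.17 in DMBA+TAM. On both lengths the order was *Erbb3*, *Erbb2*, *Egfr* in control and the reverse in DMBA+TAM.

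**Figure D2:**
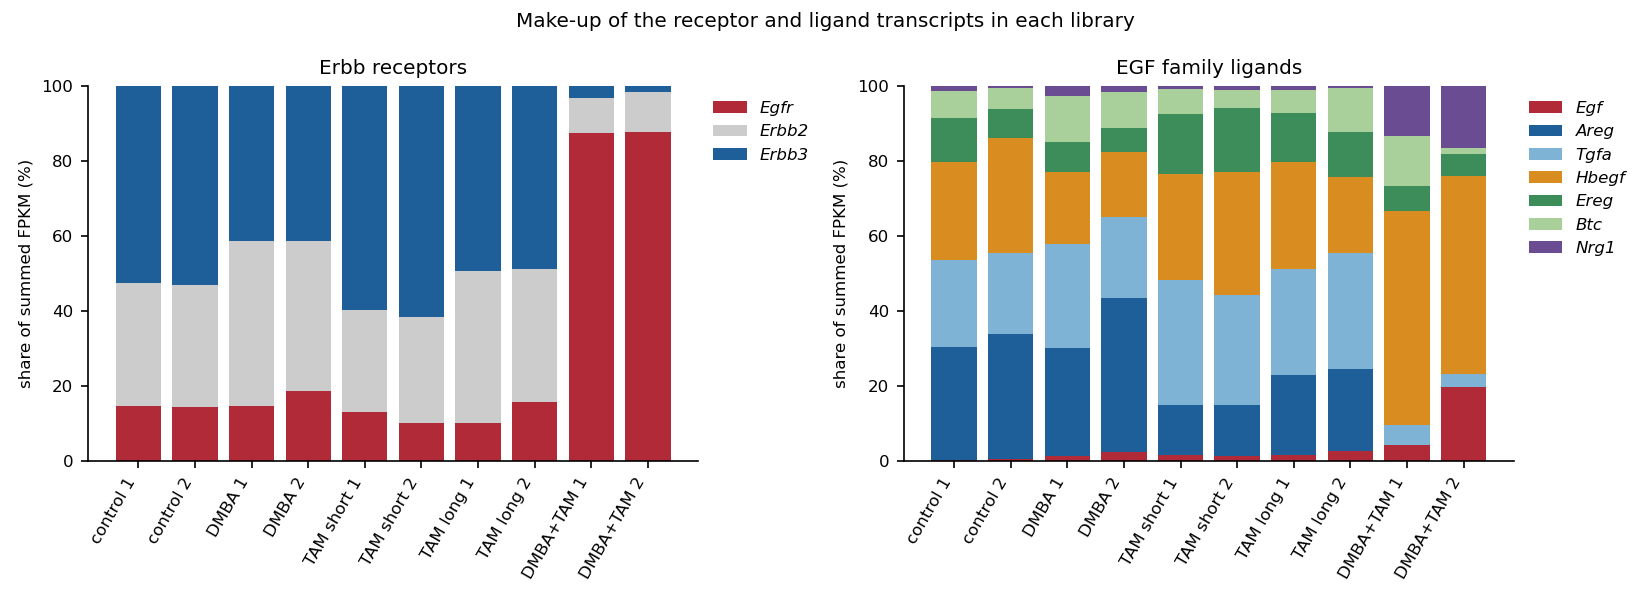
Share of each receptor in the summed FPKM of the 3 receptors (left) and of each ligand in the summed FPKM of the 7 ligands (right), in percent, for each of the 10 libraries. *Egfr* takes 87.6% and 87.8% of the receptor FPKM in the DMBA+TAM libraries and 10.2% to 18.7% in the others, and *Areg* has no share of the ligand FPKM in DMBA+TAM.

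Among ligands of the EGF receptor, transcripts of *Areg* and *Tgfa* were nearly or wholly undetected in DMBA+TAM. For *Areg* (amphiregulin), 154 and 192 reads were counted in the control libraries and 0 in both DMBA+TAM libraries. In normalized CPM its level was 17.4 and 23.1 in control, 17.8 and 23.4 in DMBA, 6.20 and 7.43 in TAM short and 14.3 and 13.9 in TAM long. Set against 3 counts per library, DMBA+TAM was at least 14.0-fold lower than control, 14.2-fold lower than DMBA, 9.73-fold lower than TAM long and 4.70-fold lower than TAM short (adjusted p = 6.04e-06, 8.76e-06, 1.90e-05 and 9.27e-05 by edgeR). *Tgfa* (transforming growth factor alpha) had 21.7 and 24.4 normalized CPM in control, 28.0 and 20.2 in DMBA, 25.4 and 26.4 in TAM short, 30.9 and 32.0 in TAM long, and 1.58 and 0.879 in DMBA+TAM from 3 and 2 counts. The ratio of summed counts of control to DMBA+TAM, corrected for library totals, was 19.2 with a 95% counting interval of 8.15 to 59.4. Its log2 fold change was -4.24 (SE 0.34, adjusted p = 2.82e-06) against control, and it was called against DMBA (-4.31), TAM long (-4.69) and TAM short (-4.41).

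*Ereg* (epiregulin), *Btc* (betacellulin) and *Hbegf* (heparin-binding EGF-like growth factor) were lower by smaller factors. *Ereg* had 23.1 and 18.0 normalized CPM in control, 16.8 and 12.8 in DMBA, 25.5 and 31.9 in TAM short, 29.4 and 25.8 in TAM long, and 4.21 and 3.08 in DMBA+TAM, the last from 8 and 7 counts. DMBA+TAM lay below all other libraries, 5.64-fold lower than control (log2 fold change -2.51, SE 0.31, adjusted p = 5.49e-05 by edgeR), and was called against DMBA (-2.03), TAM long (-2.93) and TAM short (-2.99). *Btc* had 7.22 and 6.73 normalized CPM in control, 13.0 and 9.19 in DMBA, 5.30 and 4.53 in TAM short, 7.06 and 12.7 in TAM long, and 4.21 and 0.440 in DMBA+TAM, the last from 8 counts and 1 count. DMBA+TAM was below all other libraries, but the call against control (log2 fold change -1.67, SE 0.65, adjusted p = 0.0441) was lost without DMBA+TAM replicate 2 (-0.75, adjusted p = 0.305; -3.97 without replicate 1), without control replicate 1 (adjusted p = 0.105) or without control replicate 2 (adjusted p = 0.0845). It was also lost in 5 of the 8 other settings: scaling by library size alone (-1.18, adjusted p = 0.160), the replicate block (adjusted p = 0.0522), counts thinned to the smallest total (-1.55, adjusted p = 0.0920) and limma on both FPKM scales. Against DMBA and TAM long, *Btc* was called (-2.34 and -2.17, adjusted p = 0.00919 and 0.0140), which was lost without DMBA+TAM replicate 2 (-1.40 and -1.23, adjusted p = 0.0738 and 0.113; -4.62 and -4.45 without replicate 1), and the second also without TAM long replicate 2 (-1.69, adjusted p = 0.0692). Against TAM short *Btc* was not called (-1.17, 95% interval -2.67 to 0.33), but ranged from -3.47 (without DMBA+TAM replicate 1, adjusted p = 0.0158, called) to -0.25 (without replicate 2), and was also called with no filter on low counts (adjusted p = 0.0179).

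*Hbegf* differed least of the 5 ligands that were called lower than in control. It had 29.3 and 41.3 normalized CPM in control, 23.4 and 19.2 in DMBA, 25.7 and 35.4 in TAM short, 37.8 and 25.2 in TAM long, and 20.5 and 15.8 in DMBA+TAM. The DMBA+TAM range overlapped that of DMBA (log2 fold change -0.24, 95% interval -0.91 to 0.43). Against control the log2 fold change was -0.97 (SE 0.29, adjusted p = 0.0158 by edgeR), or -0.47 with library size alone (adjusted p = 0.215), and limma on both FPKM scales made no call either. Without DMBA+TAM replicate 2 the call was lost (-0.81, adjusted p = 0.109), as it was without control replicate 2 (-0.73, adjusted p = 0.0903). The calls against TAM long and TAM short (-0.80 and -0.75, adjusted p = 0.0412 and 0.0476) were lost with DESeq2 (adjusted p = 0.0627 and 0.0745), with library size alone (0.115 and 0.357), with the replicate block (0.0524 and 0.0594), when thinned and with limma on both FPKM scales, which is 6 of the 8 other settings. The call against TAM long was also lost without DMBA+TAM replicate 1, DMBA+TAM replicate 2 or TAM long replicate 1 (adjusted p = 0.0671, 0.226 and 0.222), and that against TAM short without DMBA+TAM replicate 1, DMBA+TAM replicate 2 or TAM short replicate 2 (0.0651, 0.229 and 0.207).

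*Egf* and *Nrg1*, the ligand genes with the fewest counts, had more transcript after the combined treatment than in control. The counts of *Egf* were 2 and 4 in control, 16 and 25 in DMBA, 13 and 12 in TAM short, 24 and 35 in TAM long, and 3 and 14 in DMBA+TAM. In normalized CPM these were 0.226 and 0.481, 1.43 and 2.80, 1.47 and 1.51, 2.07 and 3.43, and 1.58 and 6.16. Control was thus the lowest group, below all 8 other libraries as for 7.01% of all genes tested. Each of the remaining groups overlapped the next by mean, but DMBA+TAM and TAM long both lay above TAM short. *Egf* was not called in DMBA+TAM against TAM short (log2 fold change 1.41, 95% interval -0.08 to 2.90, adjusted p = 0.0888 by edgeR). With library size alone it was called there (adjusted p = 0.0342), and it ranged from 0.062 to 2.01 with each library left out. The ratio of summed counts of DMBA+TAM to control was 11.7 (95% counting interval 4.39 to 36.1) and the log2 fold change 3.45 (SE 0.80, adjusted p = 0.00362 by edgeR). Over the 8 other settings, all of which called it, this fold change ranged from 1.24 to 5.67. Without DMBA+TAM replicate 1 it was 4.06 and without replicate 2 it was 2.10 (adjusted p = 0.139), and replicate 2 had 6843 normalized CPM of 6 summed skeletal muscle markers against 4.74 in replicate 1 (whose part in the *Egf* value was not tested). *Nrg1* had 1.24 and 0.601 normalized CPM in control, 2.76 and 1.68 in DMBA, 0.564 and 1.13 in TAM short, 1.38 and 0.490 in TAM long, and 4.21 and 4.40 in DMBA+TAM, the last from 8 and 10 counts. DMBA+TAM lay above all other libraries, with differences of 2.20 on the log2 scale against control (SE 0.66, adjusted p = 0.0148), 2.17 against TAM long (adjusted p = 0.0166) and 2.34 against TAM short (adjusted p = 0.0120). Against DMBA, *Nrg1* was not called (0.94, 95% interval -0.40 to 2.28) except with limma on log2(FPKM + 1) (adjusted p = 0.0242). At these counts the *Nrg1* call against control was lost without DMBA+TAM replicate 1, DMBA+TAM replicate 2 or control replicate 2 (adjusted p = 0.0533, 0.0714 and 0.0939), with log2 fold changes of 2.20, 2.14 and 1.75. Of the calls against TAM long and TAM short, the first was lost without either DMBA+TAM replicate or TAM long replicate 2 (adjusted p = 0.0593, 0.0796 and 0.0945) and was at 3.07 without TAM long replicate 1, and the second without DMBA+TAM replicate 2 or TAM short replicate 1 (0.0606 and 0.0853).

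In all, 10 of 10 members were called between DMBA+TAM and control, 3 higher and 7 lower, where 64.3% of the 16179 genes tested were called. The count was 6 without DMBA+TAM replicate 2 and 7 without control replicate 2. Against DMBA there were 1 higher and 6 lower, with 55.1% of genes called, against TAM long 2 higher and 7 lower with 55.2%, and against TAM short 2 higher and 6 lower with 63.1% (46.4% of these genes higher, or 61.4% with library size alone). The median log2 fold change of the members against control was -2.09, beside -0.17 over all genes tested, and stayed at -2.09 with *Areg* at its bound. With scaling by library size alone that median of all genes moved to 0.31, and the share of higher genes among those called moved from 45.1% to 62.4%, while 8 members stayed called, all but *Hbegf* and *Btc*, in the same directions. All 10 members had passed the filter on low counts. Since an exact two-sided permutation of 2 libraries against 2 can reach no p under 0.333, the calls rest on the spread that edgeR pools over genes and groups.

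**Figure D3:**
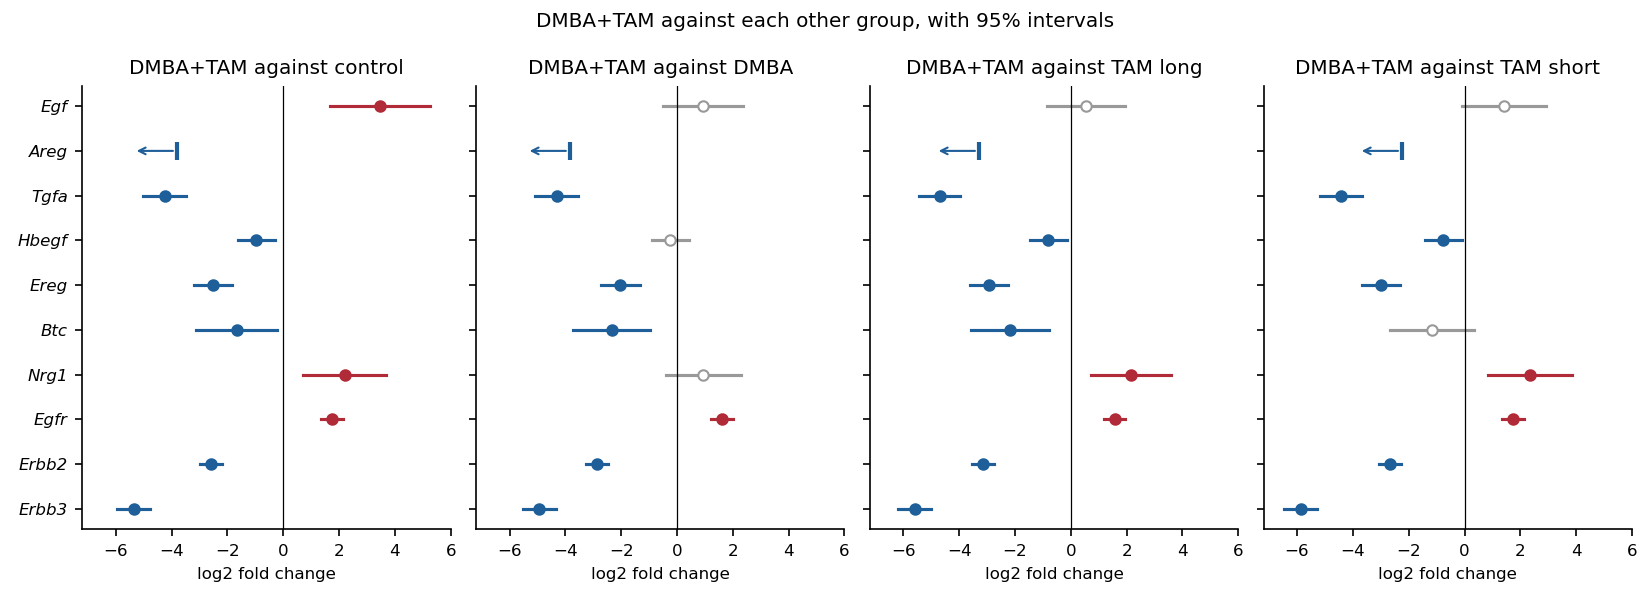
Log2 fold change (horizontal axis) of each member (rows) in DMBA+TAM against each of the 4 other groups, with 95% intervals from edgeR's fit. Filled points are called (red higher, blue lower), open grey points are not, and the bar with an arrow for *Areg* is the bound set by 3 counts per library, for instance -3.80 against control. *Erbb3* and *Tgfa* lie furthest below 0 among the fitted values.

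The summed make-up of the ligands differed in the same libraries. In control, *Areg* held 31.8% ± 2.28 (SD, n = 2) of the summed ligand FPKM, *Hbegf* 28.4% ± 3.22, *Tgfa* 22.4% ± 1.00, *Ereg* 9.75% ± 2.93 and *Btc* 6.54% ± 1.16, with *Nrg1* and *Egf* under 1% each. In DMBA+TAM, *Hbegf* held 54.9% ± 3.12, *Nrg1* 14.9% ± 2.33, *Btc* 7.55% ± 8.31, *Ereg* 6.31% ± 0.597 and *Tgfa* 4.40% ± 1.25, while *Egf* held 4.22% in replicate 1 and 19.7% in replicate 2. The larger *Hbegf* share came with a lower *Hbegf* level, since shares are relative to the other ligands. On the listed gene lengths, which are longer than those behind the deposited FPKM for *Egf*, *Tgfa* and *Btc*, *Hbegf* was also first in DMBA+TAM (62.3% ± 3.17) and *Areg* first in control (37.8% ± 2.23). In TAM short *Areg* held 13.4% ± 0.104 and *Tgfa* 31.5% ± 2.85, close to *Hbegf* at 30.5% ± 3.23, whereas on the listed lengths *Hbegf* (38.7% ± 2.96) was well ahead of *Tgfa* (17.5% ± 2.09) and *Areg* (17.0% ± 0.366). All ligands together came to 69 and 70 counts in the DMBA+TAM libraries and 796 to 1428 in the others.

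Between the treatments given singly and control, few members were called. In TAM short, *Areg* alone was called, 2.97-fold lower than control (log2 fold change -1.57, SE 0.23, adjusted p = 0.00273 by edgeR), where 14.3% of all genes tested were called (45.5% of them higher, or 58.6% with library size alone), and the call held with each of 4 libraries left out. Its neighbour *Ereg* was not called: TAM short had 25.5 and 31.9 normalized CPM of *Ereg* against 23.1 and 18.0 (log2 fold change 0.48, 95% interval 0.03 to 0.92, adjusted p = 0.148), and *Btc* was at -0.50 (95% interval -1.48 to 0.47). There were 0.751 and 1.28 *Areg* reads for each *Ereg* read in control, 0.243 and 0.233 in TAM short, 0.485 and 0.540 in TAM long and 1.06 and 1.83 in DMBA. This ratio did not overlap between control and either TAM group. In TAM long, *Areg* was 14.3 and 13.9, below both control values, but was not called (log2 fold change -0.52, SE 0.21, adjusted p = 0.0763).

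In TAM long, 2 members were called higher than in control, where 46% of genes were called. *Egf* had a log2 fold change of 2.91 (SE 0.71, adjusted p = 0.00796 by edgeR) on 6 control counts, and *Erbb2* one of 0.55 (SE 0.14, adjusted p = 0.0106). Over the 8 other settings that of *Egf* ranged from 0.94 to 5.66. Leaving out control replicate 1 or TAM long replicate 2 removed the *Egf* call (2.46 and 2.50, adjusted p = 0.0776 and 0.0558; 3.50 without control replicate 2), as did limma on log2(FPKM + 1) (adjusted p = 0.0515), and leaving out control replicate 1, control replicate 2 or TAM long replicate 1 removed that of *Erbb2* (0.52, 0.57 and 0.39, adjusted p = 0.0762, 0.0578 and 0.0985). With library size alone, which put the median of all genes at 0.37 in place of 0.05 and the share of higher genes among those called at 72.0% in place of 50.5%, 6 members were called higher: *Egf*, *Erbb2*, *Tgfa*, *Ereg*, *Egfr* and *Erbb3*. In DMBA, where 47.8% of genes were called (51.2% of them higher, or 71.1% with library size alone), *Egf* was higher (log2 fold change 2.52, SE 0.73, adjusted p = 0.0175) and *Hbegf* lower (-0.73, SE 0.25, adjusted p = 0.0385). The *Hbegf* call was lost with library size alone (-0.41, adjusted p = 0.236), with limma on both FPKM scales, without control replicate 2 (-0.47, adjusted p = 0.265) and without DMBA replicate 2 (-0.60, adjusted p = 0.136). The *Egf* call was lost without control replicate 1, control replicate 2 or DMBA replicate 2 (adjusted p = 0.127, 0.0578 and 0.0841), and its fold change ranged from 1.97 to 3.11 with each library left out. That call was lost as well with limma on log2(FPKM + 1) (adjusted p = 0.112) and when thinned (4.82, adjusted p = 0.0911). Over the 8 other settings the *Egf* fold change ranged from 0.73 to 4.82. The receptor *Egfr* differed from control by 0.13 in DMBA (95% interval -0.24 to 0.51), 0.16 in TAM long (-0.21 to 0.54) and -0.01 in TAM short (-0.38 to 0.37), the last 0.08 with library size alone. With that scaling *Egfr* and *Erbb2* were called higher in DMBA (0.43 and 0.61, adjusted p = 0.0466 and 0.0155), and *Erbb2* was called there on both FPKM scales in limma as well.

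Control and TAM short differed from DMBA and TAM long in markers of gut segment as well as in treatment. The 10 small intestinal markers summed to 47930 to 54559 normalized CPM in control and 16829 to 19362 in TAM short, against 473 to 827 in DMBA and 1031 to 1067 in TAM long. The 6 colon markers summed to 153 to 195 in control, 1287 to 1325 in TAM short, 10812 to 11405 in DMBA and 11990 to 16568 in TAM long. Between TAM short and control, 7 of the 10 small intestinal markers were called lower and 2 of the 6 colon markers higher. Markers of other cell types differed too. All 6 smooth muscle markers were called higher than in control in both DMBA and TAM long (sums of 7145 to 12048 and 8344 to 12810, against 1754 to 2071), and 4 and 3 of 5 enteric glia markers were. Of 6 Paneth cell markers, 5 were called lower in each (2186 to 7938 in DMBA, where 1 was higher, and 286 to 917 in TAM long, against 17244 to 20077). Of 10 fibroblast markers, 8 were higher and 1 lower in DMBA, 5 and 2 in TAM long, and 1 and 5 in TAM short. Of 6 T cell markers, 3 were lower and 1 higher in DMBA (sums of 16.3 to 20.3 against 41.5 to 50.7 in control), 4 and 1 in TAM long (12.7 to 17.0), and 2 were higher in TAM short (79.5 to 84.5). Of 7 macrophage markers, 3 were higher in each of these groups, with 1 lower in DMBA and in TAM long (sums of 199 to 281 over the 3 groups, against 107 to 149). Of 10 epithelial markers, 3 were higher and 4 lower in DMBA (sums of 16850 to 17326 against 22900 to 23808). In TAM long 2 were higher and 4 lower (16822 to 18708), and in TAM short 1 was higher. Mast cell markers summed to 73.1 to 79.8 in DMBA and 49.8 to 59.2 in TAM long, against 13.8 to 16.6, with 1 of 5 called higher in each. Of 6 endothelial markers, 2 were higher in DMBA and in TAM long, and 1 was lower in TAM short. In DMBA and TAM long the endothelial and mast cell counts were below the shares of all genes called, and the macrophage count was not far above them. The part of these markers in the values of *Areg*, *Egf*, *Hbegf* and *Erbb2* was not tested. Between TAM long and DMBA 2.7% of genes were called, among them 2 of the 6 Paneth cell markers, 2 of the 10 fibroblast markers and 1 of the 6 endothelial markers, all lower in TAM long. None of the segment markers was called there by edgeR, though the ranges of both sums did not overlap. Only *Ereg* of the members was called there, with 29.4 and 25.8 normalized CPM in TAM long and 16.8 and 12.8 in DMBA (log2 fold change 0.90, SE 0.20, adjusted p = 0.0486). That call was lost without DMBA replicate 2, TAM long replicate 1 or TAM long replicate 2 (0.72, 0.80 and 0.99, adjusted p = 0.121, 0.272 and 0.133) and with library size alone (adjusted p = 0.0853), thinned counts, only the groups compared and limma on both FPKM scales, and the part of the markers in it was not tested. *Erbb3* did not overlap between these groups either, as was so for 48.6% of all genes tested, with 392 and 357 against 247 and 228. It was not called (0.66, 95% interval 0.23 to 1.09, adjusted p = 0.101), except with DESeq2 (adjusted p = 0.000119) and with no filter on low counts.

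**Figure D4:**
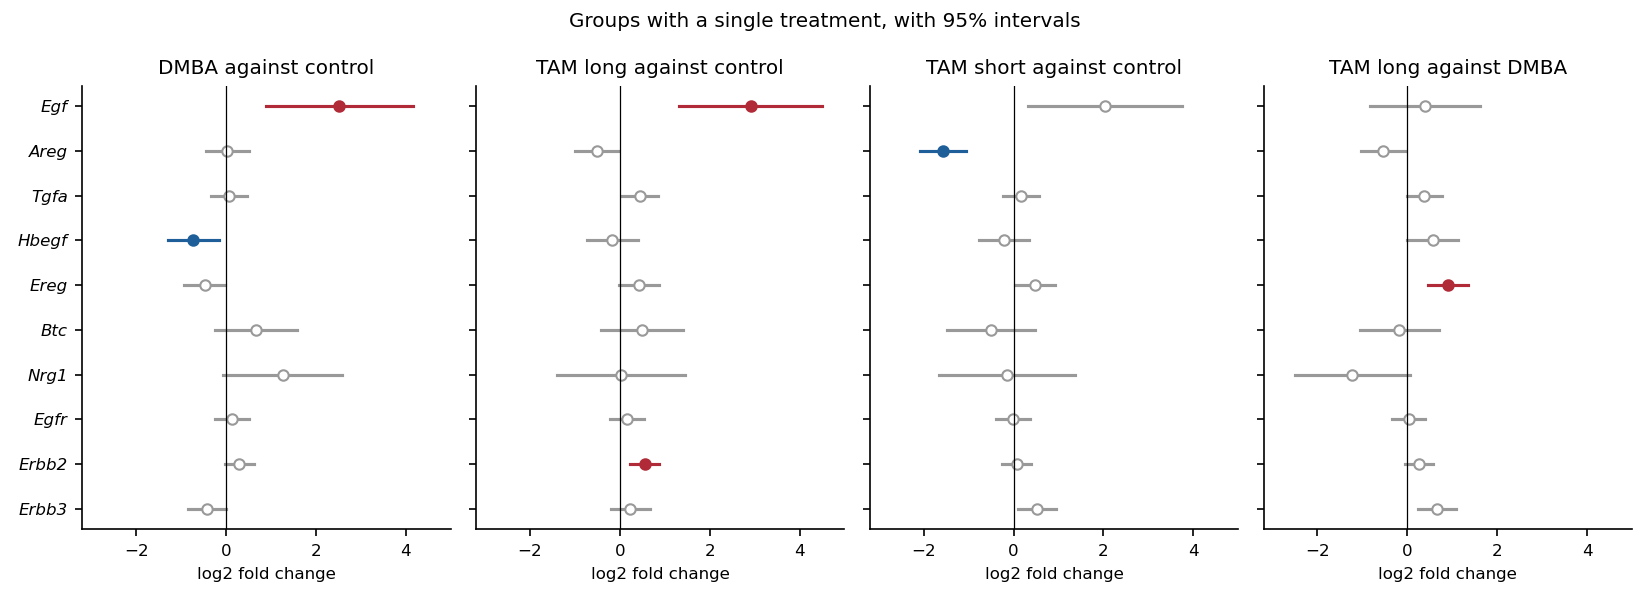
Log2 fold change (horizontal axis) of each member (rows) between DMBA, TAM long and TAM short and control, and between TAM long and DMBA, with 95% intervals from edgeR's fit. Filled points are called (red higher, blue lower) and open grey points are not. *Egf* is called higher in DMBA (2.52) and TAM long (2.91), and *Areg* lower in TAM short (-1.57).

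The difference of DMBA+TAM from DMBA was set against that of TAM long from control by an interaction term, for which 48.2% of genes were called. These groups also differ in make-up: control was high in small intestinal markers, DMBA and TAM long in colon markers, and DMBA+TAM was nearly without epithelial markers (values above), so the term cannot be told apart from these differences and is no measure of TAM alone. *Egfr* was called with a positive term (log2 1.44, SE 0.24, adjusted p = 0.000750 by edgeR), and *Erbb3* (-5.17, or -5.83 without DMBA+TAM replicate 1), *Tgfa* (-4.76), *Erbb2* (-3.43), *Btc* (-2.84), *Ereg* (-2.46) and *Areg* with negative terms. The *Btc* term ranged from -5.10 to -1.88 with each library left out, and its call was lost with counts thinned to the smallest total (-2.41, adjusted p = 0.0564). The fitted *Areg* term rests on 0 counts in DMBA+TAM and is no measure of size. *Ereg* shows the pattern in its levels: TAM long was at 27.6 ± 2.58 normalized CPM (SD, n = 2) against 20.6 ± 3.61 in control without DMBA, and DMBA+TAM at 3.65 ± 0.804 against 14.8 ± 2.81 with it. *Hbegf* (-0.08, 95% interval -0.95 to 0.80), *Nrg1* (0.91, -1.07 to 2.88) and *Egf* (-1.98, -4.14 to 0.17) were not called, though the *Egf* term was called without DMBA+TAM replicate 2 (-3.29, adjusted p = 0.0348) and ranged up to -1.34 without replicate 1.

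Of the other family members, *Epgn*, *Nrg3* and *Erbb4* had too few counts to be tested, with at most 7 counts of any of them in a library. *Erbb4*, the fourth receptor, had at most 5 counts. *Nrg2* and *Nrg4* were tested, and neither was called between DMBA+TAM and control. Against TAM short, *Nrg4* was called higher in DMBA+TAM (log2 fold change 1.87, SE 0.72, adjusted p = 0.0446 by edgeR), on 6 and 4 counts against 8 and 3.

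For the release of ligands, 8 of 10 genes rose with the combined treatment and 1 fell (median log2 fold change 2.38, beside -0.17 over all genes; with library size alone 9 higher and 1 lower). Of all 16179 genes tested, 64.3% were called in this comparison, 4687 higher and 5709 lower. *Adam12*, a protease that sheds ligands, rose from 1.81 and 1.44 to 174 and 173 normalized CPM (log2 fold change 6.72, SE 0.30, adjusted p = 6.44e-08 by edgeR). *Timp3*, an inhibitor of such proteases, rose from 21.3 and 15.7 to 615 and 548 (4.97, SE 0.35). *Frmd8*, a partner of the inactive rhomboids that carry *Adam17* protein to the surface, fell from 125 and 139 to 32.1 and 30.8 (-2.07, SE 0.13). *Adam17* itself, the main sheddase of EGF receptor ligands, rose by 1.24. A rise or fall here and in the lists that follow is a difference between the DMBA+TAM and control libraries. Those libraries also differed in markers of cell types (values below), and the part of cell types in the levels of these genes was not tested.

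Inhibitors of the receptors moved both ways, with 3 of 10 higher and 4 lower than in control (median -0.14), a share called close to the 64.3% of all genes. *Socs5* (log2 fold change 2.76) and the ubiquitin ligase gene *Cblb* (1.57) rose, and *Socs4* (-1.66) and *Lrig1* (-1.37), a membrane protein that promotes receptor turnover, fell. Of 25 genes of adaptors and cascade, 9 were higher and 7 lower (median -0.07), again close to the 64.3% of all genes. *Plcg1* (1.67) and *Gab2* (1.37) rose, while *Src* (-2.07), *Map2k2* (-1.92) and *Mapk3* (-1.80) fell. With library size alone the split was 13 higher and 6 lower for the cascade, with a median of 0.42, and 4 and 3 for the inhibitors, with a median of 0.35, so the sign of both medians depends on the scaling.

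Of 20 genes known to be induced through the EGF receptor and ERK, DMBA+TAM had 10 above and 5 below control (median 0.54, with 64.3% of all genes called), or 12 and 2 with library size alone. *Etv4*, a transcription factor gene downstream of ERK, had 1.24 and 1.68 normalized CPM in control, 8.29 and 15.6 in DMBA, 0.338 and 0.756 in TAM short, 4.30 and 5.20 in TAM long, and 36.9 and 26.8 in DMBA+TAM (log2 fold change 4.43, SE 0.42, adjusted p = 8.05e-06 by edgeR). *Ier3* rose by 3.47 on the log2 scale. *Fos* (-2.22) and the phosphatase gene *Dusp5* (-1.41) fell. Against control, this list had 11 higher and 3 lower genes in DMBA (47.8% of all genes called), 8 and 3 in TAM long (46%), and 4 and 2 in TAM short (14.3%). With library size alone these were 11 and 2, 10 and 0, and 5 and 1. Between DMBA+TAM and TAM long there were 6 higher and 5 lower (median -0.13, with 55.2% of all genes called), or 7 and 3 with library size alone (median 0.047). Against DMBA there were 8 higher and 4 lower (median 0.15, with 55.1% of all genes called), or 9 and 3 with library size alone (median 0.33). Against TAM short there were 10 and 6 (median 0.40, with 63.1% called), or 12 and 4 with library size alone (median 0.80).

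Markers of other cell types differed in the same DMBA+TAM libraries, where 64.3% of all genes tested were called against control. Fibroblast markers were higher than in control in 9 of 10 cases, with sums of 32680 and 33502 normalized CPM against 1358 to 1497. Of macrophage markers 7 of 7 were higher (4136 to 4213 against 107 to 149), of endothelial markers 6 of 6 (611 to 624 against 77.4 to 85.8), of fat cell markers 5 of 6 (1475 to 2646 against 101 to 179) and of mast cell markers 4 of 5 (83.2 to 183 against 13.8 to 16.6). All 5 of the 6 skeletal muscle markers that could be tested were called higher, on the level of replicate 2 alone (6843, against 4.74 in replicate 1). Smooth muscle markers were split, with 2 higher and 3 lower, enteric glia had 2 higher and 1 lower, and T cell markers had 1 higher and 4 lower. All 6 Paneth cell markers were lower, and *Defa17* had 0 counts in both DMBA+TAM libraries, as it had in both libraries of DMBA and of TAM long, where 5 of the 6 markers were lower than in control. *Sis* and *Rbp2*, defining genes of the small intestine, were at 0 as well, and *Vil1* was at 1 count in each. The part of these cell types in the levels of the ligands, the receptors and the pathway genes above was not tested. The summed epithelial markers were at 27.7 to 42.1 normalized CPM, against 22900 to 23808 in control.

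**Figure D5:**
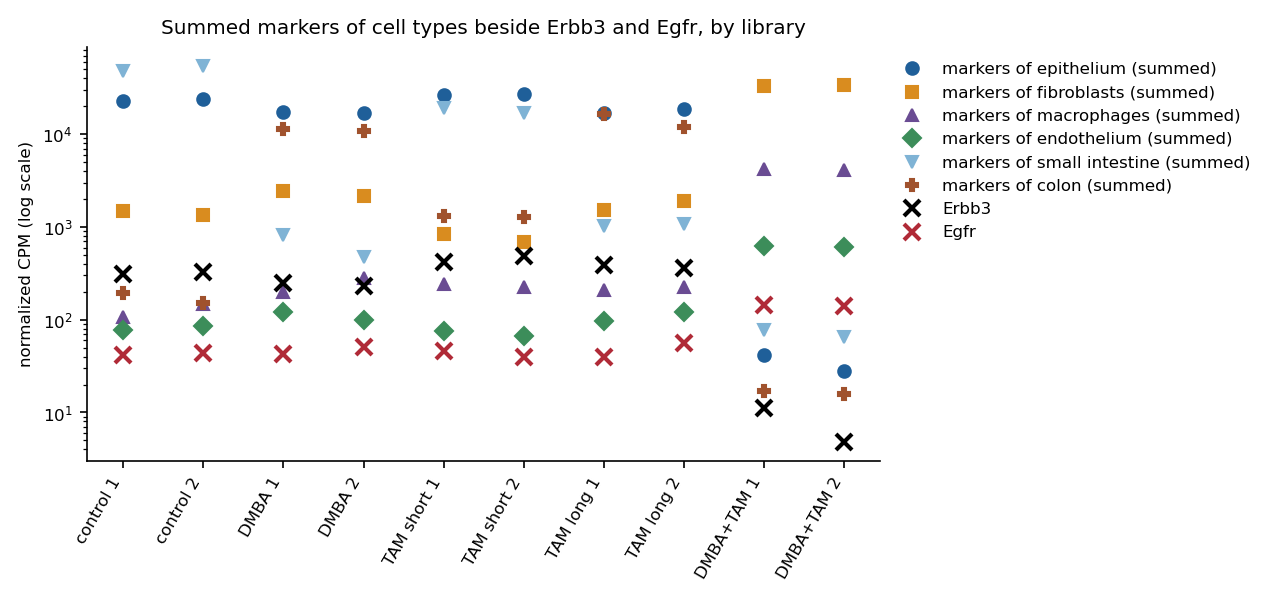
Summed normalized CPM of marker lists of 6 cell or tissue types (vertical axis, log scale) beside *Erbb3* and *Egfr*, for each of the 10 libraries. In DMBA+TAM the epithelial sum is at 42.1 and 27.7 and the fibroblast sum at 32680 and 33502, and the small intestinal sum is above the colon sum in control and TAM short and below it in DMBA and TAM long.

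The profiles of other genes across the 10 libraries were set beside those of the 3 members with the widest range of group means, *Areg*, *Erbb3* and *Tgfa*, as a description. Likeness was the root mean square distance of centred log2 CPM over 11052 genes (mean count per library 50 or more). Among the nearest to *Erbb3* were *Arhgef16* (0.27) and *2200002D01Rik* (0.33). *Areg* was nearest to *Gal3st1* (0.35), *Rassf6* (0.39) and *Vipr1* (0.39), and *Tgfa* to *Gdpd3* (0.23), *0610040J01Rik* (0.24) and *Rassf7* (0.24). With 0 counts of *Areg* in both DMBA+TAM libraries, its distances and their order depend on the value added to counts before taking logs. *Gal3st1*, for example, had 28.4 and 36.9 normalized CPM in control, 18.2 and 15.7 in TAM short and 0.527 and 0.440 in DMBA+TAM. All 8 of these genes were at their lowest in the DMBA+TAM libraries, as were the 3 members. This follows from choosing them for likeness to these members over the same libraries, and 29.9% of all genes tested had both DMBA+TAM libraries below the 8 others.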

How the data were processed

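Polyadenylated RNA of 10 organoid libraries was made into libraries with the NEBNext Ultra kit. According to the study's methods and the submitters' processing notes, the authors aligned reads with TopHat v2.0.12 and counted them per gene with HTSeq v0.6.1, and the deposited count columns hold whole counts on GRCm38.p6 coordinates. The strand setting is not given in the sources used here. The deposited FPKM values were computed by the authors from these counts and served for shares and alternatives only. For 48.06% of genes they rest on the listed length within 1%, and for the rest on another length. The table also holds the authors' own comparisons, with adjusted p-values, which were not used. Of its 47074 lines, 5 were parts of split lines and were left out.

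Libraries were grouped by their labels. Counts of all 10 libraries were fitted together in 1 model, with 1 mean per group, in edgeR 4.0.16 (R 4.3.3, filterByExpr, TMM, quasi-likelihood F test). Adjustment was by Benjamini-Hochberg over 16179 genes, with a threshold of 0.05. Replicates correlated at r = 0.949 to 0.988 on log2 CPM and differed by more than sampling noise (chi-square per degree of freedom 5.99 to 73.4). Intervals are 95% and those of count ratios cover counting error only. The floor for a count of 0 is 3 counts. Alternatives were DESeq2 1.42.0, library size alone, no filter, a replicate block, limma 3.58.1 on log2(FPKM + 1) and log2(FPKM + 0.1), counts thinned to the smallest total, fits of only the groups compared, and each library left out. All members are named. From each pathway and marker list, the 2 largest rises and the 2 largest falls in DMBA+TAM against control among called genes with a mean of 50 counts or more could be named, and *Mapk3* and *Adam17* were added after their values were seen. Members and lists were chosen with earlier results of these data known. Scripts were tested on simulated data. Promoter windows were taken from RefSeq, and a window is not shown for every member. Some items are not reported here. Figures were drawn with matplotlib 3.10.9.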

Additional observations from a re-analysis of the deposited data

Results flagged for a closer look

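The difference between DMBA+TAM and DMBA was unlike that between TAM long and control for 7 members, by the interaction term of edgeR's fit on the log2 scale, for which 48.2% of all genes tested were called. The term was 1.44 for *Egfr* (adjusted p = 0.000750), -5.17 for *Erbb3* (1.27e-06), -3.43 for *Erbb2* (1.79e-06), -4.76 for *Tgfa* (7.28e-06), -2.46 for *Ereg* (0.000453) and -2.84 for *Btc* (0.0107). The term of -9.85 for *Areg* (5.82e-05) rests on 0 counts in both DMBA+TAM libraries, so its size depends on the prior count of the fit. All 7 were called with each library left out, though the *Btc* term then ranged from -5.10 to -1.88 and that of *Erbb3* from -5.83 to -4.64, and the *Btc* call was lost with thinned counts (-2.41, adjusted p = 0.0564). The epithelial markers summed to 27.7 and 42.1 normalized CPM in the DMBA+TAM libraries. Within the term, control and TAM long also differ in small intestinal markers (47930 to 54559 against 1031 to 1067) and colon markers (153 to 195 against 11990 to 16568). The terms cannot be told apart from these differences in make-up.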

How the results depend on the processing

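Of 47 calls of members over 9 comparisons, all kept their direction and 32 their side of the threshold with each library left out, and 38 were called under every other setting that gave a value (8 settings, or 7 for *Nrg1*, which had no value with thinned counts). Where a group was left with 1 library, that library was assumed to vary like the other groups. The causes of the changes below were not tested. The replicate numbers are not shown to pair libraries (deviations correlated at r = -0.04 to 0.26 over 10 pairs of groups), and with the replicate block 9, 8 and 7 members were called in DMBA+TAM against control, TAM long and TAM short in place of 10, 9 and 8. The count of members called in DMBA against control was 1 in place of 2 with log2(FPKM + 1) (*Erbb2*, with *Egf* and *Hbegf* lost) and when thinned (*Egf* lost), and 3 with DESeq2, no filter or only the groups compared (*Erbb3* added) and with library size alone (*Egfr* and *Erbb2* added, *Hbegf* lost). In TAM long against control it was 6 in place of 2 with library size alone and 3 when thinned (*Ereg* added) or with only the groups compared (*Tgfa* added), and in TAM short against control 2 with DESeq2 (*Erbb3* added), 3 with no filter (*Egf* too) and 4 with only the groups compared (*Ereg* too), in place of 1. With log2(FPKM + 1) the count in TAM long against control was also 2, but with *Tgfa* called and *Egf* lost. In TAM long against DMBA it was 2 with DESeq2 and with no filter (*Erbb3* added), and 0 with edgeR on library size alone, thinned counts or only the groups compared and with limma on either FPKM scale, in place of 1. Over all genes, thinning gave 4845 calls in DMBA against control, 4628 in TAM long against control, 1277 in TAM short against control and 216 in TAM long against DMBA, in place of 7735, 7444, 2317 and 437. With only the groups compared, TAM short against control had 4317 calls and TAM long against DMBA 29, and the latter had 849 with DESeq2, 1615 with no filter, 290 with log2(FPKM + 1) and 199 with log2(FPKM + 0.1).

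Some values changed sign, not all of them near 0. *Hbegf* in TAM long against control (-0.16) was 0.16 with library size alone, 0.13 with log2(FPKM + 1) and 0.14 with log2(FPKM + 0.1). *Egfr* in TAM short against control (-0.01) was 0.083, 0.073 and 0.078 with the same settings, 0.13 when thinned and 0.047 with only the groups compared. Thinned, *Btc* in TAM long against DMBA was 0.25 (-0.17 with all counts) and the *Hbegf* interaction 0.23 (-0.08), and the latter was 0.0038 with DESeq2. With each library left out, against control, the range in DMBA was -0.19 to 0.23 for *Areg* and -0.22 to 0.27 for *Tgfa*. In TAM long it was -0.49 to 0.095 for *Hbegf*, -0.90 to 0.64 for *Nrg1* and -0.12 to 0.39 for *Egfr*. In TAM short it was -0.46 to 0.054 for *Hbegf*, -0.70 to 0.47 for *Nrg1*, -0.12 to 0.094 for *Egfr* and -0.037 to 0.18 for *Erbb2*. *Egf* ranged from -0.40 to 1.55 in DMBA+TAM against DMBA (0.93 with all libraries) and from -0.79 to 1.16 against TAM long (0.54). In TAM long against DMBA, *Egf* ranged from -0.034 to 0.93 (0.39), *Btc* from -0.66 to 0.20 and *Egfr* from -0.24 to 0.26. The *Hbegf* interaction ranged from -0.35 to 0.24. Members called ranged from 0 to 3 in DMBA, 0 to 1 in TAM long and 6 to 9 in DMBA+TAM, each against control, and 0 to 1 in TAM long against DMBA. Genes called ranged from 4946 to 5572 in TAM long and 669 to 1057 in TAM short against control, and 58 to 1036 in TAM long against DMBA. The DMBA+TAM libraries hold 1592366 and 1915270 counts, and the levels of *Areg*, *Tgfa*, *Ereg*, *Btc*, *Egf* and *Nrg1* there rest on at most 14 counts.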

Other observations

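Summed over the 7 ligands, deposited FPKM was 40.8 and 47.3 in control and 18.1 and 15.0 in DMBA+TAM, and summed over the 3 receptors it was 84.2 and 85.5 in control and 67.0 and 63.8 in DMBA+TAM. Ligand FPKM for each unit of receptor FPKM was 0.485 and 0.554 in control and from 0.236 to 0.270 in DMBA+TAM. On the listed gene lengths the same ratio of normalized CPM per kilobase was 0.516 and 0.598 in control and from 0.609 to 0.690 in DMBA+TAM. The order of control and DMBA+TAM thus differed between these 2 measures. Scaling cancels in a ratio within a library, so the measures differ by the gene lengths used, for *Egfr* 2955 and 10208 bases. Within a library, *Hbegf* had 1.35 and 1.69 reads for each *Tgfa* read in control and 13 and 18 in DMBA+TAM, the latter on 3 and 2 *Tgfa* counts.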
